A study of Mus musculus with 8 samples.

Results

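The aminoacyl-tRNA synthetase genes were followed in RNA-seq libraries of mouse blastocysts at embryonic day 4.5 that differed in genotype at Isca2. Members were the protein-coding genes whose GENCODE symbol is 1 letter followed by "ars", with or without a closing 1 or 2, together with Eprs, Farsa and Farsb. This rule found 37 genes of the 55471 gene identifiers in the files, 20 of them cytosolic and 17 mitochondrial, the mitochondrial ones being those whose symbol ends in 2. All 37 passed the filter on low counts and were tested among 13953 genes, and the rule used no measured value.

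The 8 libraries comprised 3 of embryos homozygous for Isca2 G77S (glycine 77 replaced by serine, labelled Isca2 G77S/G77S), 2 of Isca2 -/- embryos (KO) and 3 of wild-type embryos (WT). Superovulated Isca2 +/- females were mated with Isca2 +/- males, and the embryos were held in culture after isolation. That cross is given for every library, and the labels do not say how the G77S embryos were bred. Messenger RNA was amplified as full-length cDNA with a kit for single cells, and libraries were cut with a transposase. The number of embryos in a library and the source of each replicate are not given, so p-values here measure the spread between libraries, which may be technical. ISCA2 is a mitochondrial protein of the late steps of iron-sulfur cluster assembly, and the series title places it beside TET enzymes and iron metabolism.

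Aminoacyl-tRNA synthetases each join 1 kind of amino acid to its tRNA, the charging step that supplies the ribosome. Most animal cells carry separate nuclear genes for the cytosolic and the mitochondrial enzyme of an amino acid, and in mammals a group of the cytosolic enzymes sits with scaffold proteins in the multi-synthetase complex. When tRNAs run uncharged, the kinase GCN2 slows translation and the transcription factor ATF4 is made, and ATF4 is known to raise the RNA of several cytosolic synthetases, among them those for alanine, glycine and isoleucine, through a short response element near the start of the gene. Blastocyst growth depends on this supply as the embryo raises its rate of protein synthesis.

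Because that element is a property of the sequence and not of the counts, promoters were read for the members that the RefSeq table (build GRCm38.p6; 250 bases before to 50 after each gene's start) lists by symbol. It gave 26 of the 37 members, 12 cytosolic and 14 mitochondrial, and those without a match included Cars, Hars, Lars, Mars, Nars, Rars, Vars, Wars, Hars2 and Pars2. The motif searched was TGATGNAA on either strand, which reads TTNCATCA on the other. Counted once a gene, it was present for 5 of 12 cytosolic genes (41.7%), 0 of 14 mitochondrial genes and 4.51% of all 27025 genes in the table. Counted per promoter, it was present in 3.97% of all 32851 promoters of the same length. Aars held 2 matches and Gars, Iars, Tars and Yars 1 each, from 112 bases before the start (Aars) to 10 bases after it (Aars). A match describes the letters in this window and was not tested as a binding site. Shown here are the isoleucine, glycine and alanine genes, as examples of cytosolic promoters with the motif, and Fars2, a mitochondrial gene whose RNA differed between genotypes and whose window lacks it. Each is written on the strand of its gene, 5′ to 3′, and capitals mark the motif.

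Iars, chr13:49681880-49682179, plus strand: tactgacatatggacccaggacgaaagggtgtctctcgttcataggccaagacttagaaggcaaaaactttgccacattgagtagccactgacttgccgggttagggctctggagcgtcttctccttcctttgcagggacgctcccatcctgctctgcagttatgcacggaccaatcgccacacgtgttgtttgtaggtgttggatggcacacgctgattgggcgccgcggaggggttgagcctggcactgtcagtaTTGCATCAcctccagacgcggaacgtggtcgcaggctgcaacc
Gars, chr6:55037751-55038050, plus strand: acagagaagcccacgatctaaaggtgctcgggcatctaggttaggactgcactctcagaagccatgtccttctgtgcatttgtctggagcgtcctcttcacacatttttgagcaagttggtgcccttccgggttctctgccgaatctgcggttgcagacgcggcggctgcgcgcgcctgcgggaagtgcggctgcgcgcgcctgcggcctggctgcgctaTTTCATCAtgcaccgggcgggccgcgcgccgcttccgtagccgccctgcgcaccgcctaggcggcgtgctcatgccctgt
Aars, chr8:111033592-111033891, plus strand: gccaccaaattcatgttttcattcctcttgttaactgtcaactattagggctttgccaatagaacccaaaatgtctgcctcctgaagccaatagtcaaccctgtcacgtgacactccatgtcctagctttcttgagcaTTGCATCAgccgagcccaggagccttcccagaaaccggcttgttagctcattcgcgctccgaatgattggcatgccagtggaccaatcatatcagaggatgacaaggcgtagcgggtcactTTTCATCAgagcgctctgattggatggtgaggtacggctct
Fars2, chr13:36117393-36117692, plus strand: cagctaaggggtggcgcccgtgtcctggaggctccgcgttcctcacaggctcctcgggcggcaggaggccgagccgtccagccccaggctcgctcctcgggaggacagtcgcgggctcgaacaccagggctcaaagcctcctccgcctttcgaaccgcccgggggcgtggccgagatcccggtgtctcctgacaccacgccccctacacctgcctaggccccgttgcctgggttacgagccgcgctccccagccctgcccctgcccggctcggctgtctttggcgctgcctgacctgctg

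In Iars the match begins 8 bases after the annotated start, in Gars 30 bases before it, and in Aars at 112 bases before and 10 bases after it. All 4 of these matches read TTNCATCA on the gene's strand.

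Libraries held 10323965 to 23842619 expected counts, the authors' RSEM estimates of fragments per gene. Isca2 RNA was 89.1, 105 and 133 CPM (counts scaled to the size of the library with TMM factors) in G77S libraries, 4.84 and 6.20 CPM in KO libraries, and 86.9, 173 and 154 CPM in WT libraries. The difference of KO from WT passed the test (log2 fold change -4.64, SE 0.41, adjusted p = 0.00387). Mean fragment lengths were 181.5 to 185.1 bases in G77S libraries, 243.4 and 291.1 bases in KO libraries and 242.7 to 275.5 bases in WT libraries, so that a difference in preparation and the G77S allele cannot be told apart. Of the lineage markers, the 10 trophectoderm genes summed to 8513 to 12129 CPM in G77S libraries, 30467 and 33508 CPM in KO libraries and 28407 to 32240 CPM in WT libraries. Taken singly, 8 of these genes had negative log2 fold changes in G77S against WT (median -0.79). edgeR called 4 of them lower, where 2.09% of all tested genes were. In KO against WT 7 were negative (median -0.71) and 0 were called. At an unadjusted p under 0.05, 3 were lower in KO, where 13.0% of all tested genes were under that value. The 10 epiblast genes summed to 4626 to 7115 CPM in G77S libraries, 10975 and 12696 CPM in KO libraries and 7826 to 14531 CPM in WT libraries. Most of this sum is Dppa5a, at 5520.1 ± 1218 CPM in G77S, 11378 ± 1157 CPM in KO and 11026 ± 3381 CPM in WT (mean ± SD, n = 3, 2 and 3). Gene by gene, 8 of the 10 epiblast genes had positive log2 fold changes against WT in G77S and 8 in KO. edgeR called 2 higher in G77S (Pou5f1 and Utf1), where 1.3% of all tested genes were. It called 1 higher in KO (Utf1), where 0.0788% of all tested genes were. Of 8 primitive endoderm genes tested, 7 were positive in each mutant, with 1 called higher in G77S (Col4a1) and 1 in KO (Srgn), beside the same shares. The epiblast genes Sox2 and Esrrb and the primitive endoderm genes Sox17 and Sox7 had 0 counts in every WT library. Markers of maternal cumulus cells summed to at most 6.45 CPM and those of blood to at most 14.2 CPM. In such whole-embryo libraries fewer cells of a type and less RNA per cell cannot be told apart, and the part of cell makeup in the synthetase differences was not tested.

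Levels per transcript length are given in TPM, RSEM's length-scaled share of the transcripts of a library, as the authors deposited it. Cytosolic synthetase RNAs were mostly abundant: 18 of 20 averaged at least 10 TPM over the 8 libraries and 4 of 20 at least 100 TPM. The most abundant were Farsb, which encodes the beta subunit of the phenylalanine enzyme, at 174 TPM (range 126 to 209), Rars for arginine at 161 TPM (126 to 206) and Nars for asparagine at 156 TPM (96.8 to 244). Dars for aspartate followed at 146 TPM, and the ranges of these 4 genes overlapped. Lowest were Iars for isoleucine (range 6.43 to 25.4 TPM), Aars for alanine at 4.30 TPM (2.92 to 6.91) and Vars for valine at 2.28 TPM (0.78 to 4). The ranges of Aars and Vars overlapped each other, and that of Iars overlapped the range of Aars. Exons of Aars overlap those of Exosc6 on the same strand over 1326 bases, so fragments from that stretch could come from either gene.

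Mitochondrial synthetase RNAs were lower, with 3 of 17 averaging at least 10 TPM and 14 of 17 at least 1 TPM. At the top stood Rars2 (arginine) at 68.0 TPM (38.5 to 91.0), Fars2 (phenylalanine) at 21.2 TPM (13.1 to 32.5) and Yars2 (tyrosine) at 16.1 TPM (8.94 to 25.7). The range of Rars2 lay above those of the other mitochondrial genes, while those of Fars2 and Yars2 overlapped. Least abundant per transcript length were Mars2 (methionine) at 0.719 TPM, Vars2 (valine) at 0.534 TPM and Aars2 (alanine) at 0.216 TPM, whose ranges also overlapped. For 14 amino acids with 1 gene in each compartment, the cytosolic RNA had the higher TPM in every library for 12, and for Tars with Tars2 and Cars with Cars2 in 7 of 8 libraries. The ratio of the means spanned 1.44 for tyrosine to 56.4 for methionine, with a median of 6.44. These ratios depend on the lengths in the authors' files, which for methionine were 11294 bases for Mars2 and 1026 to 1776 bases for Mars. In CPM, which are not scaled by length, Mars averaged 68.9 in G77S, 40.1 in KO and 50.7 in WT libraries. Mars2 averaged 9.89, 8.24 and 9.89 CPM. Gars and Kars, at 76.9 and 99.4 TPM, each encode the enzyme of both compartments from 1 gene, and mitochondria have no glutaminyl enzyme, using Ears2 and the amidotransferase subunits Qrsl1, Gatb and Gatc in its place.

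**Figure D1:**
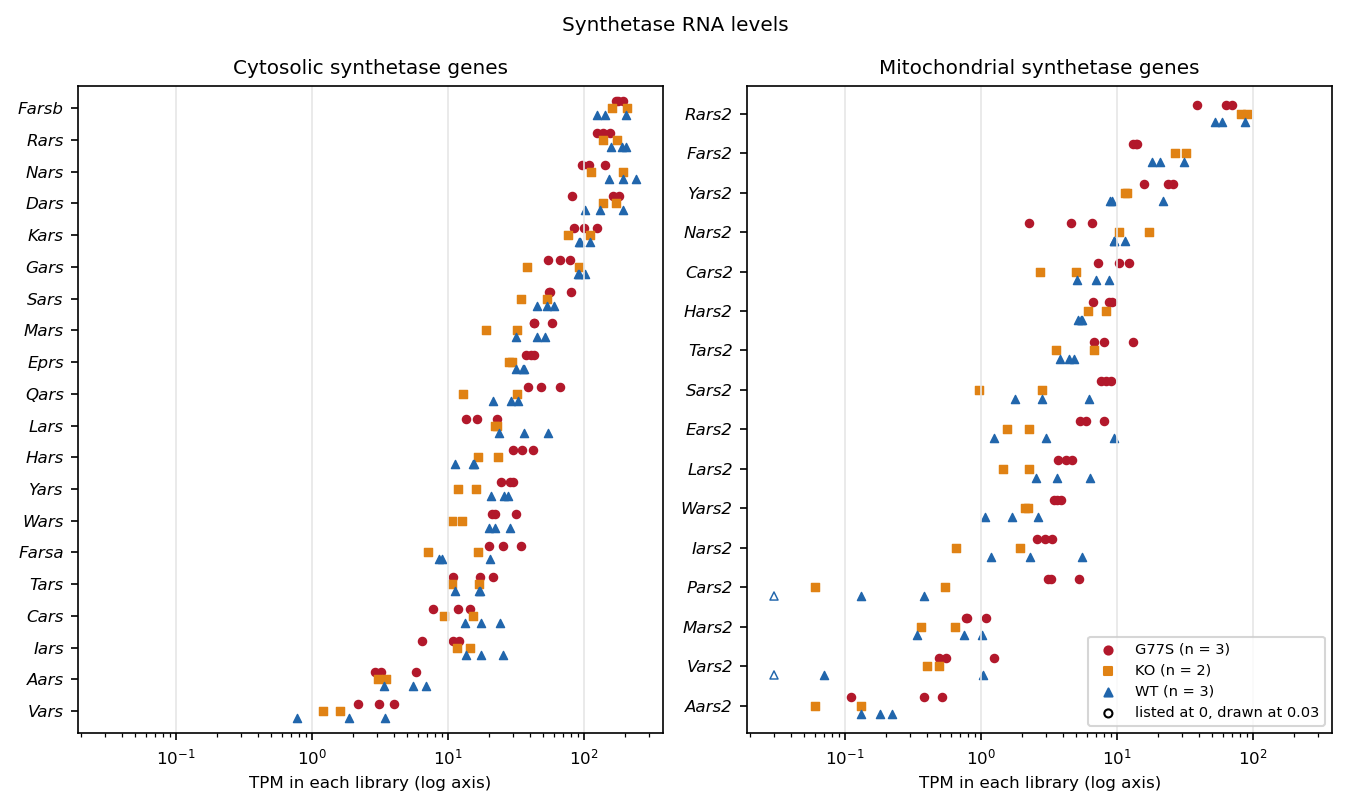
Levels of synthetase RNAs in TPM on a log axis, cytosolic genes in 1 panel and mitochondrial genes in the other, with 1 point per library coloured by genotype and open symbols for values listed at 0. Cytosolic genes run from Farsb at a mean of 174 TPM to Vars at 2.28 TPM, and mitochondrial genes from Rars2 at 68.0 TPM to Aars2 at 0.216 TPM.

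The RNAs for the subunits of 1 enzyme were unequal, and protein was not measured. Farsa and Farsb encode the alpha and beta subunits of the cytosolic phenylalanine enzyme, which assembles from equal numbers of each, yet Farsb had the higher TPM in all 8 libraries. The ratio of Farsb to Farsa was 5.21, 7.67 and 8.67 in G77S libraries, 12.6 and 22.5 in KO libraries, and 10.03, 15.7 and 14.6 in WT libraries. The G77S ratios lay below all others. Exons of Farsb overlap those of Sgpp2 on the opposite strand over 248 bases. In G77S libraries Farsa had 61.0, 39.4 and 33.7 CPM, against 35.6, 18.8 and 17.8 CPM in WT libraries, an overlap of 1 library that did not pass the test (log2 fold change 0.89, SE 0.42, adjusted p = 0.264).

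In G77S blastocysts compared with WT, the cytosolic synthetases for leucine and isoleucine fell, and most of the other differences among the 20 cytosolic genes were also negative without passing the test. By edgeR's quasi-likelihood test with Benjamini-Hochberg adjustment over all tested genes, 0 cytosolic genes rose and 2 fell (Lars and Iars), while 3.39% of all tested genes were called, 1.3% as higher and 2.09% as lower. Signs were positive for 5 and negative for 15 genes, with a median log2 change of -0.28 beside 0.04 over all tested genes. The G77S libraries lay below every WT library for 8 of the 20 genes (Cars, Eprs, Gars, Iars, Lars, Nars, Rars and Yars), where 11.8% of all tested genes did, and above every WT library for 1 (Hars), where 17.2% did. Summed over the 20 genes, RNA was 2087, 2445 and 2156 CPM in G77S libraries, against 2854, 3206 and 3405 CPM in WT libraries. These sums did not overlap, whereas the same sums per length did, at 1002, 1283 and 1119 TPM in G77S libraries, against 1251, 1148 and 1228 TPM in WT libraries.

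Lars (GRCm38 chromosome 18, 42202298 to 42262194, minus strand) encodes leucyl-tRNA synthetase, known also as a leucine sensor upstream of mTORC1. Its RNA was 26.6, 40.9 and 35.1 CPM in G77S libraries, against 68.1, 85.9 and 107 CPM in WT libraries. All G77S libraries were below all WT libraries, and the log2 fold change was -1.35 (SE 0.28, adjusted p = 0.0304). Iars (chromosome 13, 49682100 to 49734267, plus strand), for isoleucine, had 26.0, 46.9 and 41.7 CPM in G77S libraries, against 109, 98.9 and 78.9 CPM in WT libraries. Its groups were separate as well, with a log2 change of -1.32 (SE 0.29, adjusted p = 0.0373). Leaving out 1 library at a time, the Lars call was lost without WT replicate 2 or 3 or any 1 G77S library (adjusted p 0.076 to 0.119), and the Iars call without any 1 of the 6 libraries (adjusted p 0.0542 to 0.121). On log2(TPM + 1) with limma, where the median of all genes shifted by 0.23, the signs of the 20 genes were 12 positive and 8 negative, their median was 0.08, and the log2 differences of Lars and Iars were -1.02 (adjusted p = 0.0756) and -0.88 (adjusted p = 0.133).

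The asparagine gene Nars came next, with 298, 337 and 246 CPM in G77S libraries, against 429, 656 and 826 CPM in WT libraries. The groups did not overlap, and the log2 fold change was -1.12 (SE 0.28, adjusted p = 0.0552). Eprs, which encodes the joined glutamate and proline enzyme, had 93.2, 117 and 89.6 CPM in G77S libraries, against 191, 154 and 154 CPM in WT libraries (log2 fold change -0.74, SE 0.22, adjusted p = 0.0887). Its groups were separate in CPM, but the sign turned on the TPM scale (0.22 on log2(TPM + 1)), where the length the authors' files assign to Eprs was 2287, 3467 and 2260 bases in G77S libraries, against 4878, 3781 and 3347 bases in WT libraries. The arginine gene Rars had 262, 281 and 267 CPM in G77S libraries, against 325, 530 and 494 CPM in WT libraries, again without overlap (log2 fold change -0.74, SE 0.22, adjusted p = 0.0892). Gars, for glycine, had 130, 165 and 147 CPM in G77S libraries, against 222, 267 and 302 CPM in WT libraries, and its log2 fold change was -0.84 (SE 0.28, adjusted p = 0.129). These groups were separate as well. Of the cytosolic genes without values here, log2 fold changes spanned -0.83 for Cars (cysteine) to 0.44 for Mars, and Aars, at -0.82 (SE 0.35), had overlapping groups.

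Hars, for histidine, stood on the other side. It had 58.8, 67.6 and 59.3 CPM in G77S libraries, against 26.1, 27.1 and 35.6 CPM in WT libraries. Every G77S library exceeded every WT library, with a log2 change of 1.06 (SE 0.28, adjusted p = 0.064). Hars and its mitochondrial neighbour Hars2 lie head to head and share 195 exonic bases on opposite strands, so that without strand information reads from this stretch cannot be told apart. Hars2 had 17.3 to 20.7 CPM in G77S libraries, against 15.4 to 20.8 CPM in WT libraries, which overlapped.

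**Figure D2:**
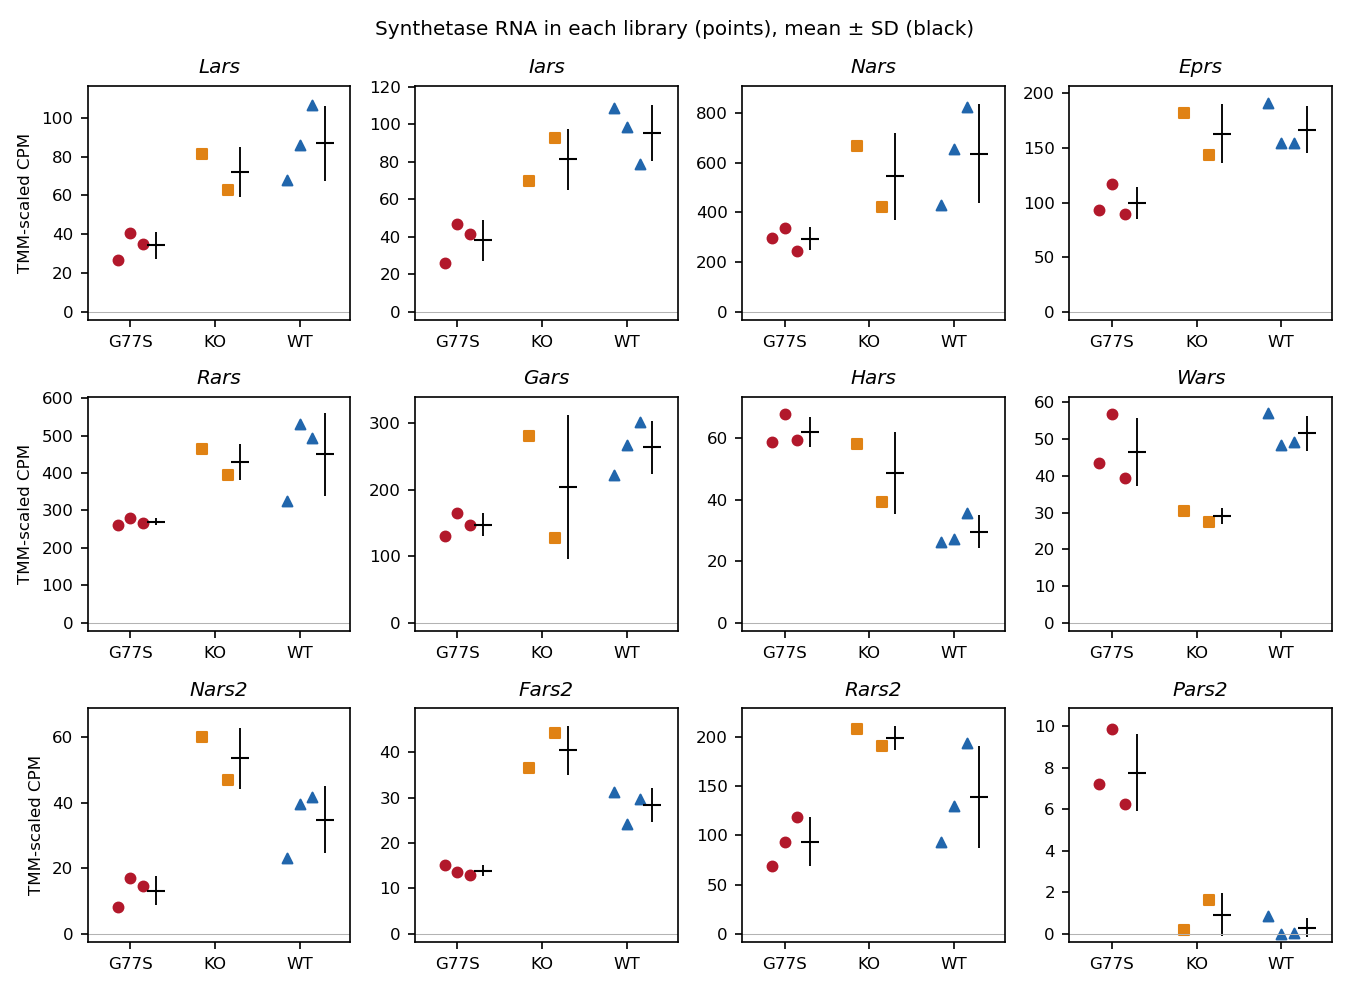
TMM-scaled CPM of 12 synthetase RNAs in each library, with G77S, KO and WT from left to right, 1 point per library, and the mean ± SD in black (n = 3, 2 and 3). In the Lars and Iars panels the 3 G77S points, from 26.0 to 46.9 CPM, lie below all KO and WT points, and in the Pars2 panel they lie above them.

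Position in the multi-synthetase complex and the motif gave different cuts through the cytosolic genes. The 8 synthetase genes of the complex (Eprs, Lars, Iars, Mars, Qars, Rars, Kars and Dars) had a median log2 change of -0.52 in G77S against WT. Signs were 2 positive and 6 negative, and on log2(TPM + 1) the median was 0.01. Of these 8, edgeR called 2 lower, where 2.09% of all tested genes were. At an unadjusted p under 0.05, 0 were higher and 4 lower, where 20.0% of all tested genes were under that value. The 12 outside it had a median of -0.21, with 0 called by edgeR and 3 signs positive and 9 negative. At an unadjusted p under 0.05, 1 was higher and 3 lower, where 20.0% of all tested genes were under that value. DESeq2 called 1 higher and 2 lower of these 12, and it also called more of all tested genes than edgeR did. In the complex, Qars for glutamine and Mars for methionine were the positive ones, at 0.39 (SE 0.39) and 0.44 (SE 0.31) on the log2 scale, and neither passed the test. The scaffold genes Aimp1, Aimp2 and Eef1e1 gave -0.23 (SE 0.23), -0.02 (SE 0.23) and -0.30 (SE 0.26), all short of the threshold. Of the cytosolic genes with a known promoter window, the 5 with the motif shown in the sequences of Iars, Gars and Aars had log2 fold changes from -1.32 to -0.26 (median -0.82, all negative) in G77S against WT. The 7 without it ranged from -0.74 to 0.89 (median -0.17, 5 negative). These signs are those of counts not scaled by length. In mean TPM, Tars (16.6 in G77S, 15.1 in WT) and Yars (27.7 and 24.9) were higher in G77S. Aars, Gars and Iars, also with the motif, were lower in mean TPM. In KO against WT the medians were -0.37 with the motif and 0.14 without it, and in G77S against KO they were -0.39 and -0.38. The difference between these small groups was not tested.

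Mitochondrial synthetases showed no call in G77S against WT by the same edgeR test: 0 of 17 passed, where 3.39% of all tested genes did. At an unadjusted p under 0.05, 1 was higher and 2 lower (20.0% of all tested genes in either direction). DESeq2 called 1 higher and 2 lower, and limma on log2(TPM + 1) called 1 higher. Both methods also called more of all tested genes than edgeR did, with the counts given in the closing section. Signs were positive for 11 and negative for 6, and the median log2 fold change was 0.26 beside 0.04 over all tested genes. Groups were separate and higher in G77S for 4 genes (Pars2, Sars2, Vars2 and Wars2), where 17.2% of all tested genes were, and lower for 2 (Fars2 and Nars2), where 11.8% were. Pars2, for proline, had 7.21, 9.86 and 6.25 CPM in G77S libraries, against 0.836, 0 and 0.0463 CPM in WT libraries. In WT libraries this rested on 15, 0 and 1 counts, and in G77S libraries on 103, 145 and 72, giving a log2 change of 4.63 (SE 1.32, adjusted p = 0.0803) that spanned 2.04 to 7.68 under the alternatives. Nars2, for asparagine, had 8.12, 16.9 and 14.6 CPM in G77S libraries, against 23.2, 39.5 and 41.7 CPM in WT libraries, a separation with a log2 change of -1.40 (SE 0.37, adjusted p = 0.0682). Fars2, for phenylalanine, had 15.2, 13.6 and 13.0 CPM in G77S libraries, against 31.1, 24.1 and 29.7 CPM in WT libraries. Its groups were separate too, with a log2 change of -1.02 (SE 0.30, adjusted p = 0.0845). The other mitochondrial genes drawn in the plot of fold changes spanned -0.57 for Rars2 (arginine) to 1.61 for Vars2 (valine), which rests on at most 19 counts in a G77S or WT library.

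Of the 14 amino acids with 1 gene in each compartment, asparagine alone had both genes, Nars and Nars2, with all G77S libraries below all WT libraries. Neither gene passed edgeR's test (adjusted p = 0.0552 and 0.0682), and 11.8% of all tested genes were separate and lower. Gars, which serves both compartments from 1 gene, was separate and lower as well. For leucine and isoleucine only the cytosolic gene was separate and lower. Lars2 had 15.7, 11.3 and 12.6 CPM in G77S libraries, against 14.2, 12.3 and 10.7 CPM in WT libraries. Iars2 had 10.3, 13.9 and 14.1 CPM in G77S libraries, against 24.8, 4.77 and 14.5 CPM in WT libraries. Both pairs of groups overlapped. The difference between the compartments was not tested.

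In KO blastocysts compared with WT, no synthetase RNA passed the test in either compartment, although the targeted gene itself fell as given above. edgeR called 0 of 20 cytosolic and 0 of 17 mitochondrial genes, where 0.122% of all tested genes were called (0.0788% higher and 0.043% lower), and DESeq2 and limma on log2(TPM + 1) also called 0. At an unadjusted p under 0.05 there were 1 higher (Hars) and 1 lower (Wars) cytosolic gene and no mitochondrial gene, where 13.0% of all tested genes were under that value. The cytosolic median log2 fold change was -0.23 (6 positive and 14 negative signs) and the mitochondrial median 0.11 (9 and 8), beside -0.06 over all tested genes. Libraries were separate for 2 cytosolic genes that were higher in KO (Farsb and Hars), where 13.1% of all tested genes were, for 2 that were lower (Wars and Yars), where 12.5% were, and for 3 mitochondrial genes, all higher (Fars2, Hars2 and Nars2).

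Wars, for tryptophan, had 30.5 and 27.6 CPM in KO libraries, against 57.0, 48.3 and 49.2 CPM in WT libraries. Both KO libraries were lower than every WT library (log2 fold change -0.83, SE 0.30, adjusted p = 0.286). Hars had 57.9 and 39.2 CPM in KO libraries, against the WT values of 26.1 to 35.6 CPM, and was separate and higher (log2 fold change 0.71, SE 0.30, adjusted p = 0.356). Farsb had 489 and 408 CPM in KO libraries, against 380, 331 and 295 CPM in WT libraries, with a log2 change of 0.42 (SE 0.21, adjusted p = 0.418).

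Among the mitochondrial genes, Iars2 had 3.84 and 9.54 CPM in KO libraries, against 24.8, 4.77 and 14.5 CPM in WT libraries, which overlapped (log2 fold change -1.14, SE 0.68, adjusted p = 0.517). Exons of Iars2 overlap those of Rab3gap2 on the opposite strand over 2034 bases. Fars2 had 36.6 and 44.1 CPM in KO libraries, against 31.1, 24.1 and 29.7 CPM in WT libraries, without overlap (log2 fold change 0.51, SE 0.32, adjusted p = 0.544). Rars2 had 208 and 191 CPM in KO libraries, against 92.9, 130 and 195 CPM in WT libraries, and its groups overlapped (log2 fold change 0.52, SE 0.33, adjusted p = 0.546).

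Synthetases fall into class I and class II by the fold of the catalytic domain. All 9 class I cytosolic genes had negative log2 fold changes in KO against WT (median -0.36), while the 10 class II genes had 6 positive and 4 negative (median 0.09), and Eprs carries a domain of each. None of these passed the test. Without KO replicate 2 the class I signs were 3 positive and 6 negative (median -0.10), and the median of the 20 cytosolic genes was 0.06 (13 positive and 7 negative signs) beside -0.17 over all tested genes. The KO libraries themselves differed, with 3558 and 2660 CPM summed over the cytosolic genes, the second below all 3 WT libraries and the first above them. Gars, for example, had 280 and 128 CPM in the KO libraries.

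**Figure D3:**
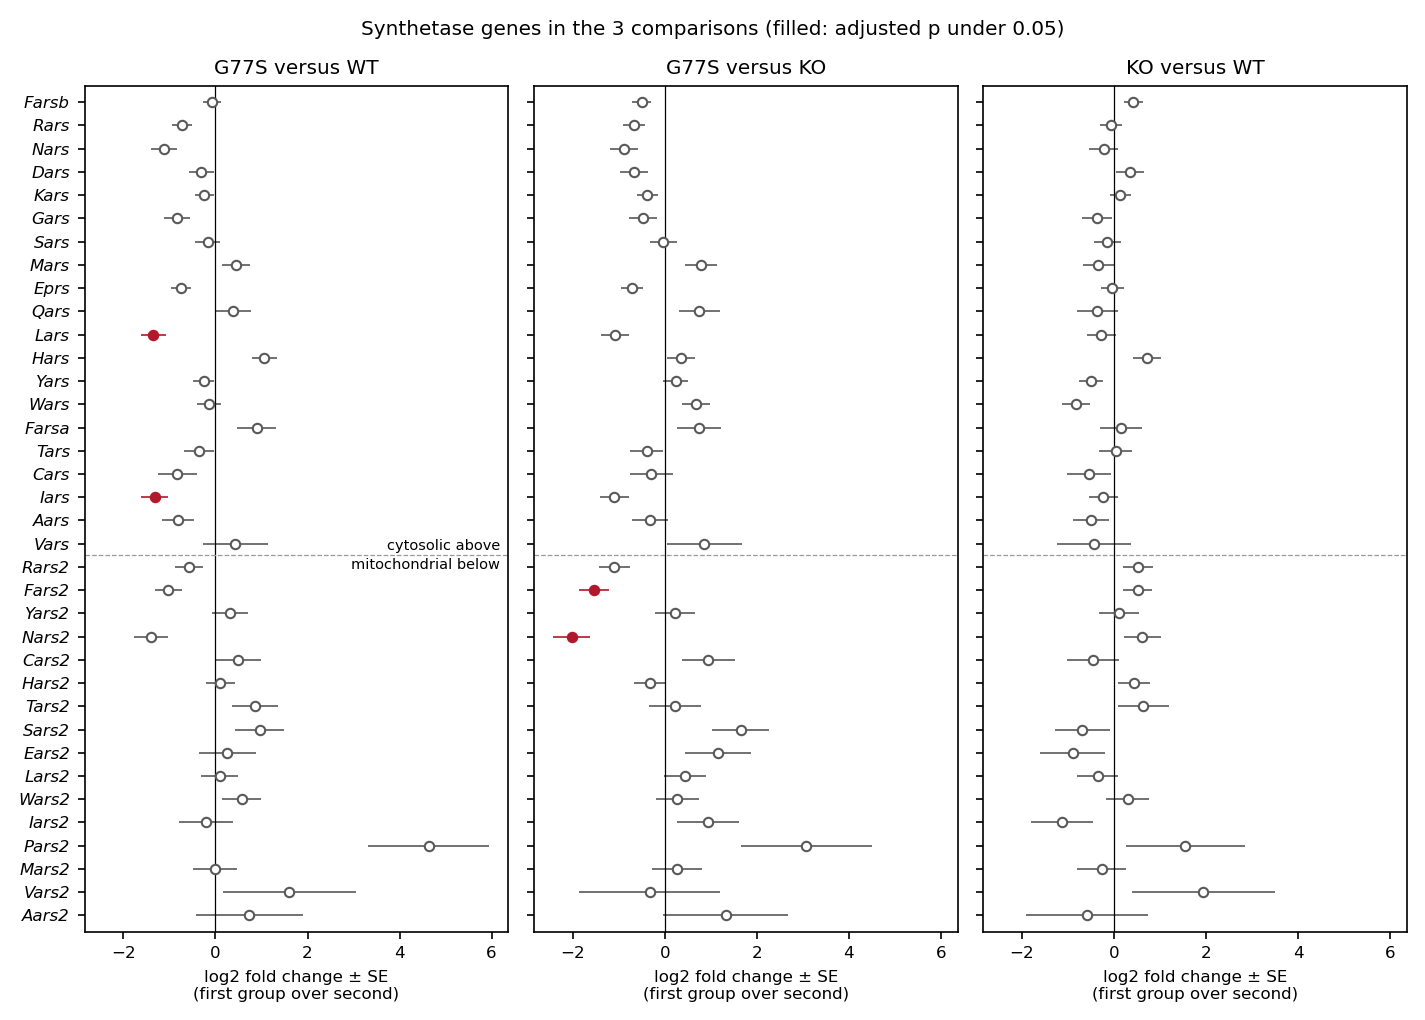
Log2 fold changes with SE of synthetase genes in G77S against WT, G77S against KO and KO against WT, from edgeR, with cytosolic genes above the dashed line and mitochondrial genes below it. Filled points have an adjusted p under 0.05: they are Lars and Iars in G77S against WT and Nars2 and Fars2 in G77S against KO, and there are none in KO against WT.

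Between the mutants, G77S against KO, the mitochondrial enzymes for asparagine and phenylalanine fell. edgeR called 0 of 17 mitochondrial genes as higher and 2 as lower, where 4.19% of all tested genes were called, 1.76% as higher and 2.43% as lower. Nars2 (chromosome 7, 96951505 to 97064758, plus strand) had 8.12, 16.9 and 14.6 CPM in G77S libraries, against 60.1 and 46.9 CPM in KO libraries. The groups were far from overlapping, and the log2 fold change was -2.02 (SE 0.41, adjusted p = 0.0232). Fars2 (chromosome 13, 36117412 to 36726280, plus strand) had 15.2, 13.6 and 13.0 CPM in G77S libraries, against 36.6 and 44.1 CPM in KO libraries, with a log2 change of -1.53 (SE 0.32, adjusted p = 0.0273). Its G77S libraries lay below both KO libraries. Neither call held when any 1 of the 5 libraries was left out (adjusted p 0.0581 to 0.11 for Nars2 and 0.0722 to 0.15 for Fars2), and exons of both genes overlap genes on the opposite strand, Nars2 by 284 bases and Fars2 by 501 bases with Nrn1 and 115 bases with Lyrm4.

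Rars2 had 68.5, 93.4 and 119 CPM in G77S libraries, against 208 and 191 CPM in KO libraries, a separation that did not pass the test (log2 fold change -1.09, SE 0.33, adjusted p = 0.0944). Sars2, for serine, had 13.9, 14.1 and 13.7 CPM in G77S libraries, against 6.44 and 2.44 CPM in KO libraries. It was separate in the other direction (log2 fold change 1.65, SE 0.62, adjusted p = 0.168). The 17 genes had 11 positive and 6 negative signs, a median of 0.26 beside 0.10 over all tested genes, and separate libraries for 4 higher and 4 lower genes, where 24.9% and 20.0% of all tested genes were.

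Of the cytosolic genes, 0 of 20 passed edgeR's test in G77S against KO, where 4.19% of all tested genes did. At an unadjusted p under 0.05, 2 were higher and 6 lower (20.7% of all tested genes in either direction). DESeq2 called 4 lower and limma on log2(TPM + 1) called 0, and both called more of all tested genes than edgeR did. Signs were 7 positive and 13 negative, and the median log2 fold change was -0.35, with 4 genes separate and higher (Hars, Mars, Vars and Wars), where 24.9% of all tested genes were, and 7 separate and lower (Dars, Eprs, Farsb, Iars, Lars, Nars and Rars), where 20.0% were. Without KO replicate 1 the median was 0.03, and on log2(TPM + 1) it was 0.21, where the median of all genes was 0.34. Lars had 26.6, 40.9 and 35.1 CPM in G77S libraries, against 81.3 and 62.8 CPM in KO libraries (log2 fold change -1.07, SE 0.30, adjusted p = 0.077). Iars had 26.0, 46.9 and 41.7 CPM in G77S libraries, against 70.0 and 93.0 CPM in KO libraries (log2 fold change -1.09, SE 0.31, adjusted p = 0.0797). Both genes thus had every G77S library below every KO library, as Nars did at 298, 337 and 246 CPM in G77S libraries, against 668 and 421 CPM in KO libraries (log2 fold change -0.89, SE 0.30, adjusted p = 0.129). On the other side, Mars had 68.7, 87.5 and 50.6 CPM in G77S libraries, against 50.4 and 29.7 CPM in KO libraries, a narrow separation (log2 fold change 0.78, SE 0.35, adjusted p = 0.235). Wars had 43.4, 56.9 and 39.3 CPM in G77S libraries, against 30.5 and 27.6 CPM in KO libraries, and was separate and higher (log2 fold change 0.68, SE 0.30, adjusted p = 0.233).

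The comparisons of G77S and KO with WT use the same WT libraries, so their values for a gene are not independent and are set side by side as descriptions. Lars stood at -1.35 in G77S and -0.27 in KO against WT on the log2 scale, Iars at -1.32 and -0.23, Nars at -1.12 and -0.23, and Nars2 at -1.40 and 0.62. Fars2 stood at -1.02 in G77S and 0.51 in KO. Hars was positive in both, at 1.06 and 0.71.

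Few of the genes that serve the synthetases passed the test. Of 15 partners, paralogs and charging helpers, 0 were called in G77S or KO against WT by edgeR, where 3.39% and 0.122% of all tested genes were. At an unadjusted p under 0.05, 3 were higher and 2 lower in G77S (20.0% of all tested genes in either direction). In KO 3 were higher and 0 lower (13.0%). DESeq2 called 3 of them in G77S and 2 in KO against WT, all higher. In every comparison it also called more of all tested genes than edgeR did, with the counts given in the closing section, and these calls were not weighed against those counts. In G77S against KO 1 was called lower, where 2.43% of all tested genes were. It was Pstk, the kinase that makes the phosphoserine intermediate of selenocysteinyl-tRNA. Pstk had 64.7 to 80.7 CPM in G77S libraries, against 132 and 191 CPM in KO libraries (log2 fold change -1.10, SE 0.25, adjusted p = 0.034). The groups did not overlap. Gatb, a subunit of the mitochondrial glutamine amidotransferase, had 18.5 to 32.3 CPM in G77S libraries, against 5.80 to 9.64 CPM in WT libraries, without passing the test (log2 fold change 1.65, SE 0.47, adjusted p = 0.0795). The other amidotransferase subunits Qrsl1 and Gatc gave -0.12 (SE 0.42) and -0.43 (SE 0.35) in G77S against WT. Dtd1, another helper, was positive in both mutants, at 1.29 in G77S (SE 0.33, adjusted p = 0.0603) and 1.40 in KO (SE 0.36, adjusted p = 0.155). Translation factors beyond charging were taken as a cytosolic list of 6 genes (elongation factors and the GCN2 activator Gcn1l1) and a mitochondrial list of 10 (initiation, elongation, release and recycling factors). They gave 0 calls in each comparison by edgeR. At an unadjusted p under 0.05 a list held at most 1 higher and 2 lower genes, where 13.0% to 20.7% of all tested genes were under that value. DESeq2 called 0 of them in KO against WT and 1 of each list as higher in G77S against WT. In G77S against KO it called 1 mitochondrial gene as higher and 2 as lower. Its larger counts over all tested genes, in the closing section, apply to these lists as well. Tufm, which carries charged tRNA to the mitochondrial ribosome, had 40.8 to 54.7 CPM in G77S libraries, 17.3 and 23.0 CPM in KO libraries and 19.6 to 27.5 CPM in WT libraries (log2 fold change of G77S against WT 0.99, SE 0.30, adjusted p = 0.0933). Eef1a1, the main cytosolic carrier, had 1684 to 2184 CPM in G77S libraries, 1845 and 2223 CPM in KO libraries, and 2192 to 2857 CPM in WT libraries.

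ATF4 and its textbook targets outside the synthetase family, 25 genes of which 22 were tested, fell in part in G77S. By edgeR 0 rose and 6 fell against WT (Asns, Mthfd2, Ddit3, Slc3a2, Aldh18a1 and Nupr1), where 2.09% of all tested genes were called lower. Signs were 4 positive and 18 negative, with a median of -1.20 on the log2 scale beside 0.04 over all tested genes. At an unadjusted p under 0.05, 1 was higher and 10 lower (20.0% of all tested genes in either direction). The positive ones were Phgdh (1.31, SE 0.54, adjusted p = 0.205), Psat1 (0.66, SE 0.49), Chac1 (0.50, SE 2.03) and Shmt2 (0.08, SE 0.51). Against KO 0 rose and 3 fell (Asns, Ddit3 and Nupr1; median -0.99), where 2.43% of all tested genes were called lower, and in KO against WT 0 were called (0 higher and 2 lower at an unadjusted p under 0.05, and 0 called by DESeq2; median -0.27). Asns, asparagine synthetase, makes the amino acid that Nars and Nars2 use. It had 16.6 to 25.8 CPM in G77S libraries, against 55.3 to 374 CPM in WT libraries (log2 fold change -3.53, SE 0.59, adjusted p = 0.0118). Slc3a2, the heavy chain of the transporter that brings in leucine and isoleucine, had 142 to 226 CPM in G77S libraries, against 400 to 435 CPM in WT libraries (log2 fold change -1.16, SE 0.27, adjusted p = 0.0439). For both genes the groups were separate.

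Ddit3, a transcription factor of the stress response, had 27.5 to 54.7 CPM in G77S libraries, against 89.7 to 229.7 CPM in WT libraries (log2 fold change -2.03, SE 0.37, adjusted p = 0.0173). Its exons overlap those of Mars on the opposite strand by 68 bases. Mars itself had 68.7, 87.5 and 50.6 CPM in G77S libraries, against 58.9, 48.7 and 44.4 CPM in WT libraries, so these neighbours had opposite signs. Atf4 had 35.8 to 48.6 CPM in G77S libraries, against 35.5 to 119.8 CPM in WT libraries, and its overlapping groups did not pass the test (log2 fold change -0.98, SE 0.39, adjusted p = 0.196). The lists around tRNA charging were chosen with results of these data known, so their counts do not stand as independent evidence. Leaving out 1 library at a time gave 1 to 7 lower calls of this list in G77S against WT, the lowest without G77S replicate 2.

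**Figure D4:**
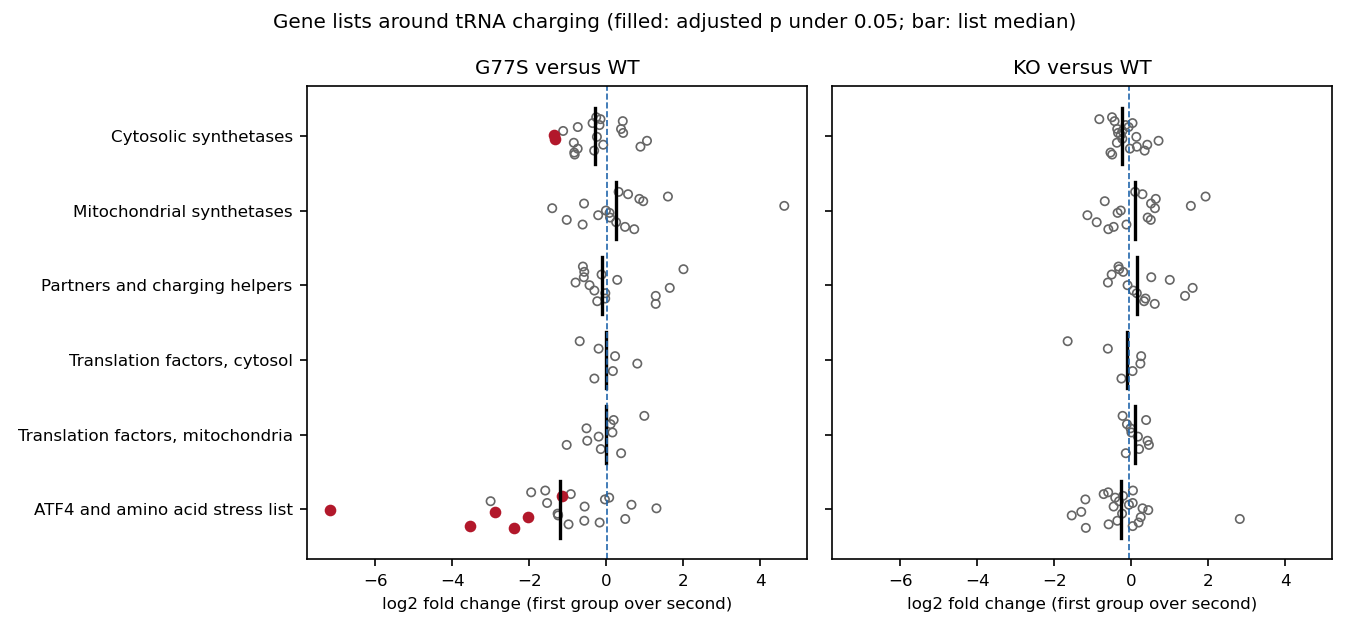
Log2 fold changes of the tested genes of 6 lists in G77S against WT and in KO against WT, 1 point per gene, filled where the adjusted p was under 0.05, with a bar at the list's median and a dashed line at the median of all tested genes. In G77S against WT the ATF4 list has 6 filled points and a median of -1.20, against -0.28 for the cytosolic and 0.26 for the mitochondrial synthetases.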

How the data were processed

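Per the labels' protocols, messenger RNA of whole blastocysts was amplified as full-length cDNA and sequenced. Per the submitters' processing notes, the tools were RSEM 1.3.1, STAR 2.6.1c, DESeq2 1.42.1 and Trim Galore 0.4.5 on mouse builds mm10/GRCm38, and the annotation release is not given in the sources used here. Per the file headers, the authors deposited RSEM expected counts, TPM and FPKM values per gene for each library, and FPKM was not used. Gene identifiers were named from GENCODE M21 (55230 of 55471 matched, 99.6%). Expected counts were rounded to whole numbers, genes were filtered with edgeR's filterByExpr (13953 kept), and libraries were scaled by TMM. The 3 genotypes were fitted in 1 edgeR 4.0.16 quasi-likelihood model (R 4.3.3) over all 8 libraries with no block, with Benjamini-Hochberg adjustment over all genes tested and a call at an adjusted p under 0.05. SE is the log2 fold change divided by the root of its F value. Scripts were tested on simulated data.

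Named with values are the members called in a comparison, otherwise those with the smallest p up to 3 per compartment, and the 3 most and least abundant per compartment. Members whose libraries do not overlap were counted, and some of these and a few other members are given with values, chosen after their values were seen. For the other lists values are given for a part of the called genes and for examples, some of them chosen after their values were seen. The counts and medians cover all members, and 1 member is not reported here by itself and is left out of the plots that name genes. The members, the gene lists and the motif were chosen with earlier results of these data known.

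Alternatives were DESeq2's size factors (RLE), no filter, a filter of 5 CPM in 2 libraries, a fit of a comparison's own libraries alone, a block for the replicate number, removal of a trend with gene length, DESeq2 1.42.0, limma 3.58.1 on log2(TPM + 1) and log2(TPM + 0.1), and leaving out each library. Counting the gene lists under each alternative was added after the data were seen. Fragments split between genes by RSEM, and opposite-strand genes, cannot be told apart in unstranded counts. The only annotated pseudogene named after a member is that of Kars.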

Additional observations from a re-analysis of the deposited data

How the results depend on the processing

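No synthetase gene was called in KO against WT under any of the 14 alternatives run, and the members followed in all alternatives (those called, with the smallest p of a comparison, or separate at an unadjusted p under 0.05) kept their sign except Eprs. On log2(TPM + 1) and log2(TPM + 0.1) Eprs turned to 0.22 and 0.23 in G77S against WT and to 0.47 and 0.48 in G77S against KO; the cause was not tested. Cytosolic calls in G77S against WT, 2 as reported, were 4 with no filter, 4 with the stricter filter, 5 with only the 2 groups, 4 with the length trend removed, 7 with DESeq2 and 1 on either TPM scale (Hars), and 0 to 3 with 1 library left out. Mitochondrial calls there, 0 as reported, were 2 with no filter, 1 with the stricter filter, 1 with the length trend removed, 3 with DESeq2, 1 on either TPM scale and 0 to 2 with 1 library left out. In G77S against KO, cytosolic calls, 0 as reported, were 3 with no filter, 5 with the length trend removed and 4 with DESeq2, and mitochondrial calls, 2 as reported, were 4 on log2(TPM + 1) and 0 with any 1 library left out. Over all genes, the 17 calls in KO against WT became 547 with no filter, 60 with the stricter filter, 11 with only the 2 groups, 8 with the replicate block, 631 with DESeq2, 95 and 86 on the TPM scales and 0 to 42 with 1 library left out. The 473 calls in G77S against WT became 1336 with no filter, 746 with the stricter filter, 755 with the length trend removed (199 higher and 556 lower, against 182 and 291), 1523 with DESeq2, 1466 and 1307 on the TPM scales (1178 higher and 288 lower, and 1030 and 277) and 86 to 638 with 1 library left out. The 585 calls in G77S against KO became 1411 with no filter, 1009 with only the 2 groups, 1686 with DESeq2, 1849 and 1744 on the TPM scales (1543 higher and 306 lower, and 1469 and 275, against 246 and 339) and 161 to 243 with 1 library left out; with the length trend removed they split into 229 higher and 636 lower. Same-numbered libraries did not deviate together (correlations -0.02 to 0.07), so the replicate block is given here only: it left 2 cytosolic calls in G77S against WT, 411 calls over all genes there and 600 in G77S against KO, and the Fars2 call in G77S against KO was lost (adjusted p = 0.0586). Vars2, Aars2 and Pars2 rested on counts as low as 0 to 19 in some libraries, so differences of these genes were not detectable unless large.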
